A study of Mus musculus with 4 samples.

Results

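The enzymes that write, copy and remove cytosine methylation were measured in activated CD4+ T cells with and without the transcription factor Irf4. They are the maintenance pair Dnmt1 and Uhrf1, the de novo methyltransferases Dnmt3a and Dnmt3b, and the oxidising dioxygenases Tet1, Tet2 and Tet3. Members were found by the RefSeq accession that the array design gives each probe, translated into a gene symbol. This gave 7 genes with 14 probes, of 45526 genes or transcripts and 56605 probes on the array.

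The study compared 2 wild-type and 2 Irf4-/- samples, each from male C57BL/6 mice with no age stated in the labels. Naive splenic CD4+ cells (CD62L+CD44-) of either genotype were stimulated through CD3 with the 2C11 antibody at 1 µg per ml, beside syngeneic antigen-presenting cells blocked with mitomycin C. Live CD4+ cells were sorted again on day 2 for total RNA, and each sample went onto 1 one-colour Agilent array. Both genotypes were stimulated alike and no unstimulated group was among the samples, so the comparison is between genotypes after activation. The labels name 2 independent experiments without saying which animals they used, and p-values measure the spread between these samples. In bulk RNA, fewer cells expressing a gene and less of its RNA per cell cannot be told apart.

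Methylation of CpG sites in mammals is copied at each division by Dnmt1, which Uhrf1 brings to the half-methylated sites left behind the replication fork. Dnmt3a and Dnmt3b add methyl groups to sites that had none, and the Tet enzymes oxidise the methyl group so that it can be diluted out or replaced through base excision repair. In T helper cells these enzymes act on loci such as the cytokine genes and Foxp3, where methylation helps to hold a gene silent across divisions.

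All 7 genes were expressed and none differed detectably between the genotypes. Each brightest probe was well above background on all 4 arrays, and these probes gave processed signals from 97.9 to 24295 with none saturated. No gene passed the test (limma over 20505 genes, Benjamini-Hochberg adjusted p from 0.565 to 0.988), and none had an unadjusted p under 0.05. Over all genes 0.493% were called higher and 0.244% lower in the knockout at adjusted p under 0.05, and 11.4% had an unadjusted p under 0.05. Differences, as log2 knockout minus wild type, were negative for 6 genes and positive for 1, with a median of -0.23 beside a median of -0.02 over all genes. On 4 genes (Dnmt1, Uhrf1, Dnmt3b and Tet1) each knockout array was lower than each wild-type array, and no gene had the opposite order. Over all genes 21.3% showed the first order and 17.9% the second.

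Standard errors of the 7 differences ran from 0.17 to 0.24 log2 units, beside a median of 0.20 for all genes, and the smallest difference called for any gene was 1.51. Across the 7 genes the 95% confidence intervals reached no further than a 2.18-fold change in either direction.

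Facts of the arrays bear on these values. All 4 arrays lay on 1 slide, replicate 1 of both genotypes in slide row 1 and replicate 2 in row 2, so differences can be read within a row. Slide column 1 held the wild-type arrays and columns 3 and 2 the knockout arrays, so column and genotype cannot be told apart. Correlation over all tested genes was 0.992 between the wild-type arrays, 0.989 between the knockout arrays and 0.978 to 0.986 between genotypes. The brightest Irf4 probe read 5.03 and 4.74 in wild type and 4.23 and 4.04 in the knockout, a difference of -0.75 ± 0.20 (SE, adjusted p = 0.231 by limma). The sources used here do not place this probe relative to the deleted part, so it checks no label. All 12 CD4 T cell markers were above background on every array. Summed B cell marker signal, relative to each array's 75th percentile, was 3.57 and 2.41 in wild type and 8.90 and 5.46 in the knockout over 10 genes, with Ebf1 and Blk above background on no array. Over the 8 B cell markers tested the median difference was 0.86 and 1, Fcmr, was called higher. Over 10 myeloid markers the sums were 12.1 and 12.9 against 12.2 and 11.4, with Itgax, Lyz2, Adgre1 and Fcgr3 above background on none, and the 5 tested had a median difference of 0.60. Among these Tyrobp read -2.23 and -2.76 in wild type and -0.78 and -0.47 in the knockout, and Cd68 and Fcer1g were also higher on both knockout arrays. Itgam went the other way, with 2.81 and 3.20 in wild type and 2.64 and 2.76 in the knockout. Csf1r read 2.09 and 1.55 against 2.10 and 1.56. Over 6 NK markers the sums were 3.05 and 4.15 against 4.78 and 5.01, and over 9 erythroid and platelet markers 0.870 and 0.697 against 1.05 and 1.83. The 2 NK markers tested had a median difference of 0.56 and went opposite ways. Klrk1 read 1.23 and 1.48 against 0.82 and 0.40, and Klrd1 -0.73 and 0.37 against 1.52 and 1.86. For the 3 erythroid and platelet markers tested the median was 0.95, with Slc4a1 lower and Hba-a1 and Hbb-bt higher on both knockout arrays. The part of such cells in the differences described here was not tested.

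On the brightest probes of Dnmt1 and Uhrf1, the maintenance pair, both knockout arrays read below both wild-type arrays. Both 95% confidence intervals of the difference include 0. Levels are given as log2 signal relative to the array's 75th percentile, so 0 is the level of that percentile and not absence, and levels of different probes are not compared. Dnmt1 read 3.03 and 3.10 in wild-type replicates 1 and 2 and 2.91 and 2.76 in the knockout. The groups do not overlap, and knockout replicate 2 was the lowest array. The difference was -0.23 ± 0.17 (SE, n = 2 per genotype, 95% confidence interval -0.67 to 0.21, adjusted p = 0.790 by limma), or 0.853 of the wild-type level. It was -0.12 in slide row 1 and -0.34 in row 2. Dnmt1 was read by 1 probe alone.

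Uhrf1, the reader of half-methylated CpG that recruits Dnmt1, read 6.17 and 5.87 in wild type and 5.77 and 5.49 in the knockout. In both genotypes replicate 2 was the lower array, and the gap between genotypes was nearly the same in the 2 slide rows, at -0.40 and -0.38. The overall difference was -0.39 ± 0.21 (SE, 95% confidence interval -0.93 to 0.15, adjusted p = 0.626 by limma), or 0.763 of the wild-type level. A second probe, designed on another transcript record of the gene, read -0.65 and -0.95 in wild type and -0.75 and -1.07 in the knockout. There the groups overlap and the difference was -0.11.

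Start-site sequences of the maintenance pair share letters that the other members' sequences lack, and are printed for that reason beside that of Dnmt3b, which lacks them. RefSeq (GRCm38.p6) gave 12 windows for the 7 genes, each running from 250 bases before to 50 after a transcript start. Capitals mark matches, on either strand, to the E2F letters TTTCCCGC, TTTGGCGC, TTTCGCGC or TTTGCCGC, a motif class found at many genes of DNA replication. The Dnmt1 window is chr9:20952574-20952873 on the minus strand, the Uhrf1 window chr17:56304063-56304362 on the plus strand and the Dnmt3b window chr2:153649199-153649498 on the plus strand.
Dnmt1: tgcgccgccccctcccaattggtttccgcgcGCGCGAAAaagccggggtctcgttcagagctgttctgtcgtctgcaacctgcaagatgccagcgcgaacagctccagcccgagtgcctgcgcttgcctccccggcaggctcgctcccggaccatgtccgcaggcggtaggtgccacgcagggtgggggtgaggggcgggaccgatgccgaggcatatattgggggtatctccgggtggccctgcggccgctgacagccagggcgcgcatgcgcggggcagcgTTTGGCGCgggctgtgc
Uhrf1: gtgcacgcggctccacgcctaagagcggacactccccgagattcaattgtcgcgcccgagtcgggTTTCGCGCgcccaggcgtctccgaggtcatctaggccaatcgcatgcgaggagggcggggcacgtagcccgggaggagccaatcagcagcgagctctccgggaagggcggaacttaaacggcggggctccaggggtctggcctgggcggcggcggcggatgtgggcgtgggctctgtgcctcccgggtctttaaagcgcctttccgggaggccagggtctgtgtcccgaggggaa
Dnmt3b: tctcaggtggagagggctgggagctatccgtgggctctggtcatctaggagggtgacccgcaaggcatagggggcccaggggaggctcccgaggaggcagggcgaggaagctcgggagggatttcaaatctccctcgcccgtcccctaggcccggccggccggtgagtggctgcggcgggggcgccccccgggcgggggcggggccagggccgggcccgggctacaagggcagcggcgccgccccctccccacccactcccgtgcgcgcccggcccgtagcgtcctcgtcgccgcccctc

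In the Dnmt1 window the matches begin 219 bases before and 33 bases after the start site, and in the Uhrf1 window the match begins 185 bases before it. Of 32544 distinct start-site windows of the same length in the table, 2.28% hold one of these letters. Of the 12 member windows 2 did, 1 for each gene of the pair. The other windows of Dnmt1 and Uhrf1, not printed, did not. Letters searched for Irf4, alone or with a partner, and for its AP-1 partners on their own, were in none of the 12. These were the AP-1 site TGANTCA (7.79% of all windows), the interferon-response repeat GAAANNGAAA (3.45%), the ETS-IRF site GGAANNGAAA (2.73%) and the AP-1-IRF sites GAAATGANTCA and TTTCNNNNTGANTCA (together 0.25%). AP-1 letters also lie inside the AP-1-IRF sites. A match describes these letters only, and no match says nothing on binding elsewhere.

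CpG sites, the enzymes' own substrate, were dense in most of these windows. The count per window ran from 2 to 57, beside a median of 7 over all windows. Tet2 had the most, 57, more than 99.8% of all windows have. The 3 windows of Dnmt3a had 46, 47 and 18, and the Dnmt3b window 30. The printed Dnmt1 and Uhrf1 windows had 33 each, more than 91.4% of all windows have. The other Dnmt1 windows had 12 and 2, and the other Uhrf1 window had 12. Tet3 had 22 and Tet1 17.

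**Figure D1:**
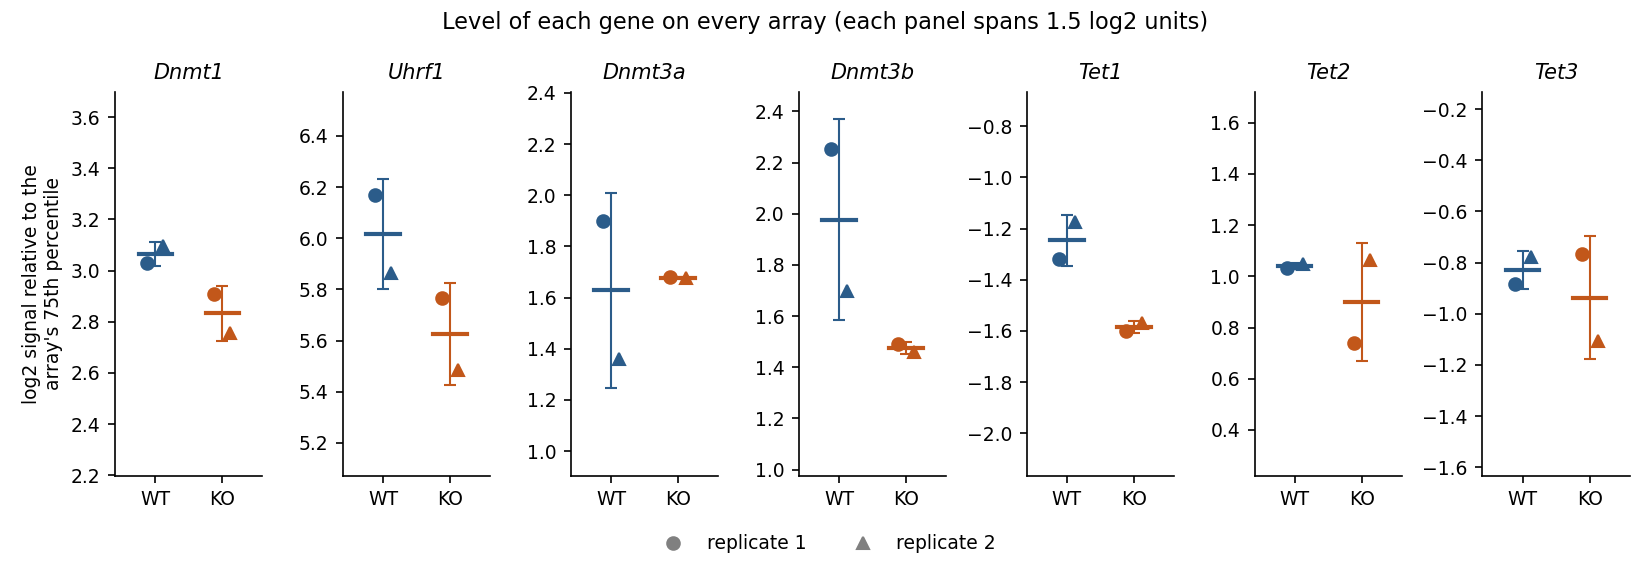
Each panel shows 1 gene's brightest probe as log2 signal relative to the array's 75th percentile (vertical axis), for wild-type (WT, blue) and Irf4 knockout (KO, orange) arrays; circles are replicate 1, triangles replicate 2, horizontal lines the means and error bars the SD (n = 2). Knockout points lie below both wild-type points for Dnmt1, Uhrf1, Dnmt3b and Tet1 and overlap them for Dnmt3a, Tet2 and Tet3, and the wild-type arrays of Dnmt3a and Dnmt3b lie far apart (SD 0.38 and 0.39).

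Neither de novo methyltransferase passed the test. Dnmt3a, the main de novo enzyme of mature T cells, read 1.90 and 1.36 in wild type and 1.68 and 1.68 in the knockout. The knockout arrays lie between the wild-type arrays. The difference was 0.05 ± 0.24 (SE, 95% confidence interval -0.56 to 0.66, adjusted p = 0.988 by limma), and it took opposite signs in the slide rows, -0.22 in row 1 and 0.32 in row 2. Of all tested genes 84.4% had a larger absolute difference. A second Dnmt3a probe read -0.63 and -0.82 in wild type and -0.54 and -0.32 in the knockout. On that probe both knockout arrays lay above both wild-type arrays, with a difference of 0.29 that did not pass a limma fit over 26331 probes (adjusted p = 0.669).

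Dnmt3b, the other de novo enzyme, had the largest difference of the 7 genes. It read 2.25 and 1.70 in wild type and 1.49 and 1.46 in the knockout. Wild-type replicate 1 stood above the other 3 arrays, and the groups do not overlap. The difference was -0.50 ± 0.24 (SE, 95% confidence interval -1.12 to 0.12, adjusted p = 0.565 by limma), or 0.707 of the wild-type level, and 16.3% of all tested genes had a larger absolute difference. Its size rested on the wild-type arrays, at -0.22 when wild-type replicate 1 was left out and -0.78 when wild-type replicate 2 was, and it was -0.76 in slide row 1 and -0.24 in row 2. A second probe went the same way, with 0.61 and 0.33 in wild type, 0.21 and 0.11 in the knockout and a difference of -0.31 (adjusted p = 0.645 by limma over probes). The remaining probe, placed on another transcript record, was not well above background on any array.

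The Tet enzymes gave 1 gene whose arrays separated by genotype and 2 that overlapped. Tet1 read -1.32 and -1.18 in wild type and -1.60 and -1.57 in the knockout. The knockout arrays lay close together and below both wild-type arrays. The difference was -0.34 ± 0.17 (SE, 95% confidence interval -0.78 to 0.10, adjusted p = 0.589 by limma), or 0.790 of the wild-type level, with -0.28 and -0.39 in slide rows 1 and 2. The second Tet1 probe did not show it. There wild type read -2.70 and -2.24 and the knockout -2.38 and -2.57, a difference of -0.01 with the groups overlapping.

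Tet2, the Tet enzyme best known from lymphoid and myeloid malignancies, read 1.03 and 1.05 in wild type and 0.74 and 1.06 in the knockout. Knockout replicate 1 was the low array and the others lay within a few hundredths of each other. The difference was -0.14 ± 0.19 (SE, 95% confidence interval -0.64 to 0.36, adjusted p = 0.928 by limma). It was -0.29 in slide row 1 and 0.02 in row 2. A second probe was also lowest in knockout replicate 1, with -0.91 and -0.88 in wild type, -1.40 and -0.94 in the knockout, and a difference of -0.28 (adjusted p = 0.751 by limma over probes). On it the knockout arrays were the lower pair.

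Tet3 read -0.88 and -0.78 in wild type and -0.77 and -1.11 in the knockout. The highest and the lowest array were both knockout arrays. The difference was -0.11 ± 0.20 (SE, 95% confidence interval -0.62 to 0.41, adjusted p = 0.952 by limma), with 0.11 in slide row 1 and -0.33 in row 2. The second probe read -2.72 and -2.21 in wild type and -2.59 and -2.32 in the knockout, and its difference was 0.0022.

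**Figure D2:**
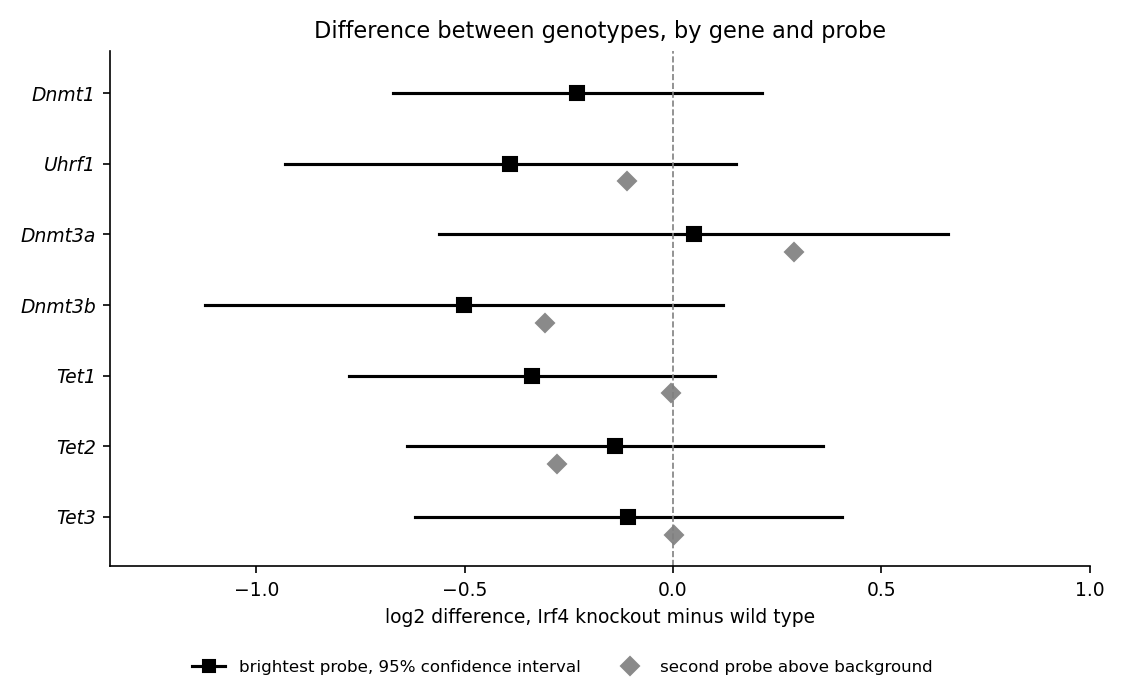
Squares give the log2 difference (knockout minus wild type) of each gene's brightest probe with its 95% confidence interval from limma, and diamonds the difference on a second probe above background on all 4 arrays. Every interval crosses 0, the squares run from -0.50 (Dnmt3b) to 0.05 (Dnmt3a), and the second probes of Tet1 and Tet3 lie at 0.

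Fitted as separate features, 13 of the 14 probes entered the test and none was called or had an unadjusted p under 0.05 (limma, 267 of 26331 probes called, smallest member adjusted p 0.518). Of these 13 probes 10 read lower in the knockout, 6 of them with the genotypes not overlapping. Both usable Dnmt3b probes are among the 6, and the second Dnmt3a probe had the opposite order without overlap. Over all genes, each read by its brightest probe, 21.3% had both knockout arrays lower and 17.9% both higher. The share over all probes was not computed. For 6 genes more than 1 probe was on the array. Both usable probes had negative differences for Uhrf1, Dnmt3b, Tet1 and Tet2 and positive ones for Dnmt3a, and for Tet3 the signs differed.

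Genes whose profile over the 4 arrays was most like that of a member, by the root mean square of the differences between profiles each centred on its own mean, were sought among 12028 genes. For Dnmt1 these were Pura (0.0168 log2 units) and Stxbp5 (0.0175), and for Uhrf1 D5Ertd605e (0.0107) and Wdr31 (0.0157). For Dnmt3a they were Pdlim2 (0.0155) and Atp5e (0.0225), and for Dnmt3b Rdm1 (0.0344) and Ccdc50 (0.0416). Tet1 lay closest to Gtf2i (0.0103) and Gt(ROSA)26Sor (0.0143), Tet2 to Numa1 (0.0117) and Tmtc2 (0.0142), and Tet3 to Chn1 (0.0142) and Wasf1 (0.0162). With 4 arrays such profiles are common. Within 0.1 log2 units lay 1254 genes for Dnmt1, 787 for Tet2, 716 for Tet1, 607 for Tet3, 516 for Dnmt3a, 432 for Uhrf1 and 49 for Dnmt3b.

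Proteins that work with the methyltransferases gave 0 genes past the test among 21 tested of 22 listed. The median difference was -0.10, 16 were negative, and 2 had an unadjusted p under 0.05 (limma). Ehmt2, the histone H3 lysine 9 methyltransferase G9a, read 6.08 and 5.99 in wild type and 5.15 and 4.98 in the knockout, a difference of -0.97 ± 0.17 (SE, adjusted p = 0.110). Ezh2, the catalytic subunit of Polycomb repressive complex 2, read 4.54 and 4.34 against 3.49 and 3.58, a difference of -0.90 ± 0.18 (SE, adjusted p = 0.133), and its other 4 probes gave -0.46 to -0.74. Neither passed the test as fitted here, and on both the knockout arrays were the lower pair. Both passed with normexp background (adjusted p = 0.00328 for Ehmt2 and 0.0096 for Ezh2) and with trended and robust variance (0.00416 and 0.00534), and in none of the other alternatives computed for them. At the other end, the H3 lysine 9 methyltransferase gene Suv39h1 differed by 0.00087 and Morc3 by -0.01. Pcna, the clamp that carries Dnmt1 at the fork, differed by -0.09, and Hells, a remodeller needed for normal methylation, by -0.19.

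S phase genes are the natural companions of Dnmt1 and Uhrf1, since maintenance follows replication. Of 25 tested, 0 passed and 2 had an unadjusted p under 0.05 (limma), while 23 had negative differences. Their median was -0.22 (-0.29 in slide row 1 and -0.16 in row 2), and on 8 the knockout arrays were the lower pair. Of all 20505 genes tested 10923 had negative differences, and on 21.3% the knockout arrays were the lower pair. Cyclin E2 (Ccne2), detected on 1 knockout array of 2 and so tested only through wild type, had a difference of -1.38 (adjusted p = 0.0811). Cyclin E1 (Ccne1) had one of -0.48 (adjusted p = 0.397). Leaving out 1 array moved the median widely, to -0.07 without wild-type replicate 1, -0.11 without knockout replicate 2, -0.33 without knockout replicate 1 and -0.38 without wild-type replicate 2. The clamp loader subunit gene Rfc3 (0.02) and the polymerase delta gene Pold1 (0.03) differed least. The part of S phase content in the Dnmt1 and Uhrf1 values was not tested.

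Among proteins that read CpG methylation or unmethylated CpG, 0 of 13 passed and 0 had an unadjusted p under 0.05 (limma). The median was -0.11, with 9 negative. Kdm2a, a histone demethylase that binds unmethylated CpG, differed by -0.41 (adjusted p = 0.477) and the methyl-CpG binder gene Mbd1 by 0.28 (adjusted p = 0.821). The methylated-DNA binders Zbtb33 (-0.04) and Zbtb38 (0.05) differed least.

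Downstream of the Tet enzymes, 0 of 14 genes of oxidised-base removal and base excision repair passed, and 3 had an unadjusted p under 0.05 (limma), around a median of -0.04. Gadd45g, of a stress-response family linked to demethylation, read 3.43 and 3.60 in wild type and 2.35 and 2.74 in the knockout, a difference of -0.97 (adjusted p = 0.164). Its relative Gadd45b went the other way, with 2.32 and 2.26 against 2.93 and 3.15 and a difference of 0.75 (adjusted p = 0.194), and Gadd45a differed by -0.23 (adjusted p = 0.951). Gadd45a and Gadd45b lie outside the naming rule and were picked after their values were seen. The DNA glycosylase gene Neil1 differed by 0.80 (adjusted p = 0.424). Tdg, the glycosylase that removes the oxidised bases Tet makes, differed by -0.01, and the repair scaffold gene Xrcc1 by -0.04.

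Tet enzymes need 2-oxoglutarate, and 0 of 15 tested genes of its supply and of Tet partners passed (2 with an unadjusted p under 0.05 by limma, median 0.04). Cxxc5, a CXXC zinc finger relative of the Tet2 partner Cxxc4, read -2.55 and -3.03 in wild type and -1.44 and -1.84 in the knockout, a difference of 1.15 (adjusted p = 0.173). Cxxc4 itself and Wt1 did not pass the filter on dim probes. Idh2, the mitochondrial isocitrate dehydrogenase gene, differed by -0.49 (adjusted p = 0.395), and the Idh3b (0.0032) and Idh3g (0.04) subunit genes least. In the methionine cycle, which makes the methyl donor, 0 of 15 passed, 1 had an unadjusted p under 0.05 (limma) and the median was -0.05. Ahcyl2 differed by 0.89 (adjusted p = 0.228). The methionine adenosyltransferase subunit gene Mat2b (-0.0002) and the amino acid transporter gene Slc7a5 (-0.03) were at the other end.

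Genes known as targets of methylation were read as well, without any measure of methylation itself. Of 18 germline genes listed as held silent by promoter methylation in somatic cells, 13 did not pass the filter on dim probes. Of the 5 tested 0 passed and 1 had an unadjusted p under 0.05 (limma, median -0.11). That was Piwil2, a PIWI protein gene above background on 1 of 2 wild-type arrays, which entered the test only through the knockout arrays. It read -4.07 and -4.21 in wild type and -1.88 and -2.43 in the knockout, a difference of 1.99 (adjusted p = 0.0547). The testis bromodomain gene Brdt differed by -0.51 (adjusted p = 0.635), Taf7l by -0.10 and Tuba3a by -0.11. Tuba3a has a near-identical copy, so its value is uncertain.

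Of 18 imprinted genes 8 were tested and Plagl1, a zinc finger factor gene expressed from the paternal copy, rose. Plagl1 read -0.35 and -0.10 in wild type and 2.87 and 2.61 in the knockout, a 7.82-fold higher level (log2 2.97 ± 0.20 SE, adjusted p = 0.0293 by limma). A second Plagl1 probe gave only 0.17 (adjusted p = 0.921 over probes). It did not pass without wild-type replicate 1 (log2 2.84, adjusted p = 0.0943), when wild-type replicate 2 was left out (log2 3.09, 0.103), with the replicate block (log2 2.97, 0.0967), with quantile normalization (log2 2.97, 0.0588), without a filter on dim probes (log2 2.97, 0.406) or with the mean of the 2 probes (log2 1.57, 0.0870). The list's median was 0.59. It was 0.28 over genes above background on all 4 arrays and 0.17 with every probe as its own feature. Of the 8 genes 5 had an unadjusted p under 0.05 (limma). Among these 5, Dlk1 and Snrpn entered the test only through the knockout arrays, where they read higher. The count and the median of 0.59 are thus not independent of the filter. Dlk1, above background on 1 of 2 wild-type arrays, differed by 2.23 (adjusted p = 0.250), the noncoding Kcnq1ot1 by -0.0006 and Impact by -0.16.

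Of 20 T cell genes whose silence or expression is known to depend on methylation, 17 were tested. Ikzf2, which encodes Helios, rose 15.2-fold (log2 3.93 ± 0.39 SE, adjusted p = 0.0392 by limma), from -0.76 and -1.05 in wild type to 2.49 and 3.55 in the knockout. It did not pass when wild-type replicate 1 (log2 4.07, adjusted p = 0.106) or wild-type replicate 2 (log2 3.78, 0.144) was left out. Nor did it with the replicate block (log2 3.93, adjusted p = 0.122), quantile normalization (log2 3.94, 0.0943) or no filter on dim probes (log2 3.93, 0.419). Neither knockout array had Il17a well above background, so it entered the test only through wild type. Its knockout level was at least 3.67-fold lower, counting those arrays at the lowest signal well above background or their own signal if higher. The adjusted p of 0.110 (limma) belongs to the measured difference of -2.89, which uses the knockout signals as read. The regulatory T cell factor gene Foxp3 differed by -0.08 and Il10 by 0.02. The median of the 17 was 0.02, with 8 negative and 9 positive, and 10 had an unadjusted p under 0.05. Since the list was drawn up with earlier results of these arrays known, its counts are not independent evidence. Cd8b1, the CD8 beta chain gene, read 3.12 and 3.21 in wild type and 2.23 and 2.14 in the knockout, a difference of -0.98 (adjusted p = 0.0979). Cd8a, the other CD8 T cell marker, read -4.00 and -4.34 against -3.67 and -4.99, was above background on 1 array of each genotype and did not pass the filter. The cells had been sorted for CD4, and the part of other cells in these values was not tested.

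**Figure D3:**
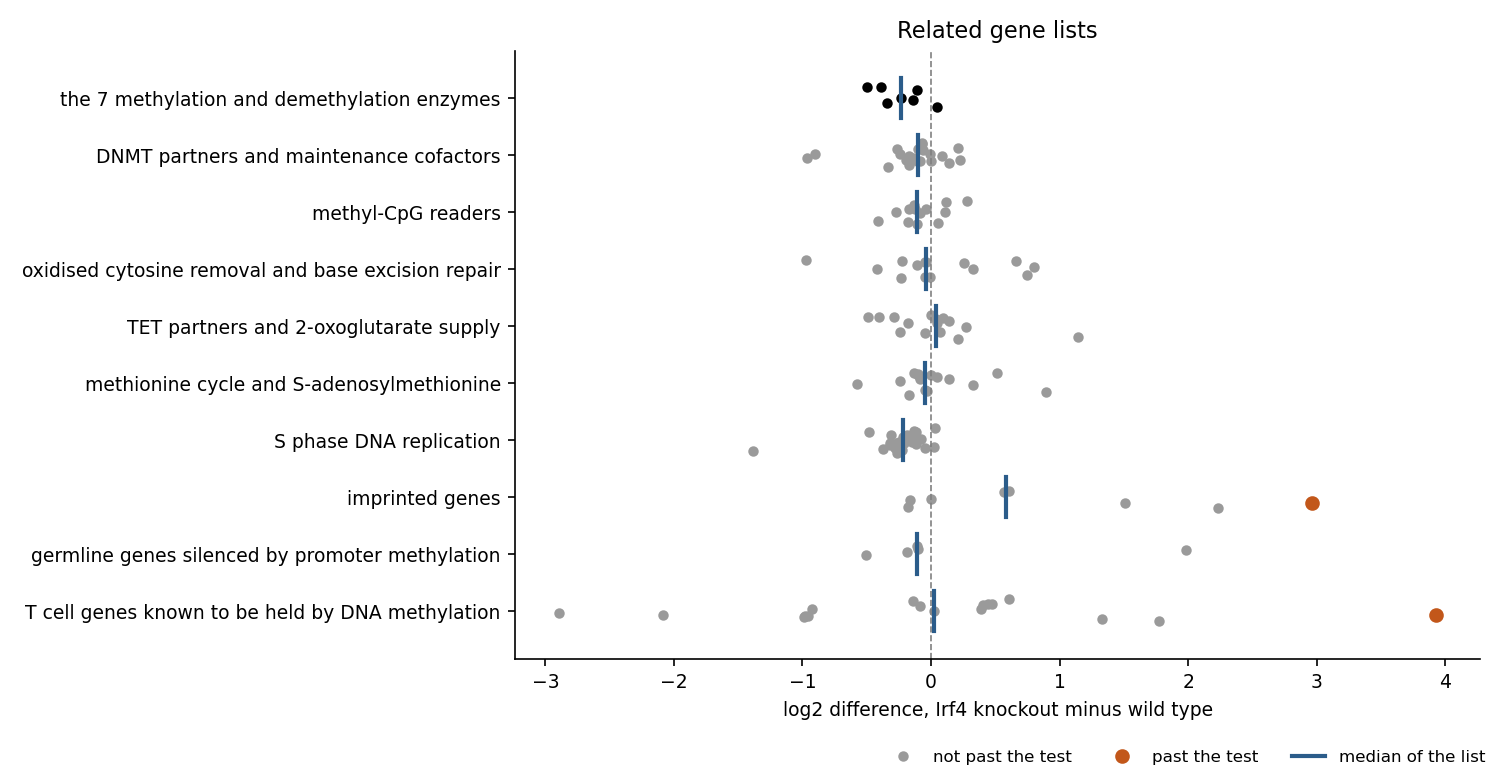
Each point is 1 tested gene's log2 difference (knockout minus wild type, horizontal axis) in the 7 enzymes and the 9 related lists, orange points passed the test over all genes, and blue bars are list medians. The enzymes span -0.50 to 0.05, while the imprinted and T cell lists spread over several log2 units and hold the only 2 genes past the test, Plagl1 and Ikzf2.

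Across all 9 lists 133 distinct genes were tested and 2 were called. Both calls lay in the lists of imprinted and T cell genes.

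The differences of the 7 enzymes were recomputed under every alternative, and none passed the test in any of them. Dnmt1, Uhrf1, Dnmt3b and Tet1 were negative in every alternative. Their ranges were -0.34 to -0.15, -0.54 to -0.11, -0.78 to -0.22 and -0.45 to -0.01. The filter and variance settings and the replicate block cannot change a difference, so they do not bear on its sign. On the brightest probes of Dnmt1, Uhrf1, Dnmt3b and Tet1 the genotypes do not overlap. Leaving out an array could therefore not reverse the sign of these genes either. The deposited table holds the same signal up to small shifts. For these genes only the other scalings, normexp and other probes bear on the sign. Dnmt3a, Tet2 and Tet3 took both signs. Scaling by the median array signal in place of the 75th percentile moved the median of all genes by -0.11. Taken relative to the median of all genes, a difference is the same under both scalings by construction. These relative differences were -0.21 for Dnmt1, -0.37 for Uhrf1, 0.07 for Dnmt3a and -0.48 for Dnmt3b. They were -0.32 for Tet1, -0.12 for Tet2 and -0.09 for Tet3.

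**Figure D4:**
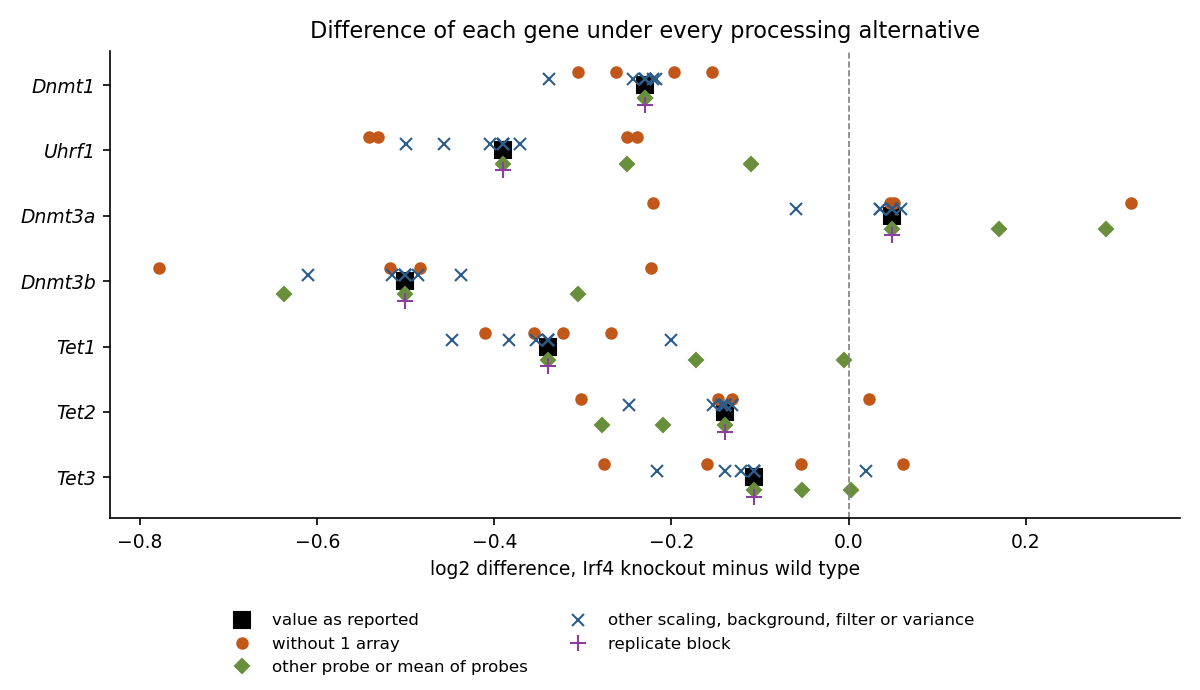
Each mark is a gene's log2 difference (knockout minus wild type) under 1 way of processing, with black squares for the values as reported, orange circles for fits without 1 array, green diamonds for other probes or the mean of probes, crosses for other scalings, backgrounds, filters or variance settings and plus signs for the replicate block. Dnmt1, Uhrf1, Dnmt3b and Tet1 stay left of 0, with Dnmt3b spread from -0.78 to -0.22, and the marks of Dnmt3a, Tet2 and Tet3 fall on both sides.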

How the data were processed

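Total RNA of 4 samples was measured on 4 one-colour Agilent mouse arrays. Spot intensity came from Agilent Feature Extraction, version 11.0.1.1 per the file headers and 9.1 per the submitters' processing notes. Of the deposited intensity columns the processed signal was used, which the authors' software had background-subtracted but not scaled between arrays. The authors also deposited a log2 table, whose columns equalled the scanner files' log2 processed signal less its 75th percentile, centred per probe, up to shifts of at most 0.03; column medians were -0.17 and 0.10 (wild type) and -0.11 and 0.12 (knockout). It served as an alternative.

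Control and flagged spots were left out, which left 137 probes without a usable spot on at least 1 array. Accessions were matched to RefSeq symbols (GRCm38.p6 table): 32994 of 56605 probes matched 22911 symbols, and 23611 kept the file's name. From log2 processed signal minus the array's 75th percentile, each gene was read by its brightest probe and tested if both arrays of 1 genotype or more were well above background (20505 of 45526). Genotypes were compared with limma 3.58.1 in R 4.3.3 (lmFit, eBayes), p-values adjusted by Benjamini-Hochberg over all tested genes, threshold 0.05. The steps were tested on simulated data. From 25677 to 28725 probes per array were well above background, and the number of arrays, 2 per genotype, limits the precision.

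Alternatives were median scaling, quantile normalization, normexp (offset 50, on median spot and background signals, since mean spot signal was not in the columns used here), other filters, a trended and robust variance, the mean of probes, every probe, the deposited table, a replicate block and leaving out each array. Same-numbered arrays share a slide row. Their deviations from the group means correlated at r = 0.348 across the 20505 tested genes. With 2 pairs of arrays this does not establish pairing.

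Named genes are the 7 members, every called gene of a related list, its 2 tested genes with the largest and 2 with the smallest absolute difference, 2 profile neighbours per member, and Irf4; 1 gene under this rule is not reported here. Pcna, Hells, Gadd45a, Gadd45b, Snrpn and Cd8b1 were added. Members and lists were chosen with earlier results of these data known. One treatment label names cultures of hours where the titles and design text name day 2, which was taken.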

Additional observations from a re-analysis of the deposited data

How the results depend on the processing

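None of the 7 enzymes was called in any of the 14 alternatives (limma; at most 2 had an unadjusted p under 0.05), and the lowest adjusted p was 0.260, for Dnmt3b with trended and robust variance. Of 104 values of the enzymes, 6 reversed: Dnmt3a with median scaling (-0.060, by a shift common to all genes, relative to whose median it stayed at 0.07), Tet3 with normexp (0.019) and on its second probe (0.0022), and values without 1 array, whose ranges were -0.22 to 0.32 for Dnmt3a (lowest without wild-type replicate 2), -0.30 to 0.023 for Tet2 (highest without knockout replicate 1) and -0.28 to 0.062 for Tet3 (highest without knockout replicate 2). The 104 values include some that could not reverse, from the filter and variance settings, the replicate block and the brightest probes fitted again. Nor could the values of Dnmt1, Uhrf1, Dnmt3b and Tet1 without 1 array, since their genotypes do not overlap. Over all genes 151 were called (101 higher). The count was 1042 with median scaling, 1 (lower) with quantile normalization, 760 with normexp, 797 with trended and robust variance, 260 with the deposited table and 267 with every probe as its own feature. It was 0 without a filter (2099 genes at an unadjusted p under 0.05). With the replicate block it was also 0 (3195). Leaving out 1 array gave 0 to 487: 0 without wild-type replicate 1 (1864 at unadjusted p under 0.05) or 2 (1678), 487 without knockout replicate 1. Related-list genes called, 2 as reported, were 12 with median scaling, 0 with quantile normalization, 15 with normexp, 0 without a filter, 4 with genes above background on all 4 arrays, 15 with trended and robust variance, 1 with the mean of probes, 5 with the deposited table, 0 with the replicate block, 4 with every probe and 0 to 7 without 1 array. Plagl1 was past the threshold in 8 of 15 values (adjusted p 2.70e-13 to 0.921; log2 0.17 to 3.10) and Ikzf2 in 9 of 14 (7.28e-24 to 0.419; log2 3.31 to 4.46). For Plagl1 and Ikzf2 the lowest adjusted p came from limma with median scaling. There both genes and all 7 enzymes had the same standard error, 0.36. That fit thus gave them a common variance in place of their own spread, and the 1042 calls come from the same fit. Of 128 medians 24 were marked as moved, which for a list means by at least the replicate spread. Both counts include the median of all genes under median scaling and under quantile normalization. These were marked as moved without comparison to a spread. With 2 arrays per genotype, wild-type replicates that lie apart (Dnmt3a, Dnmt3b) limit what can be seen. The causes of these changes were not tested.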
